A study of Mus musculus with 20 samples.

Results

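The genes described here are mouse genes whose symbol is Zfp followed by a number, the name given to zinc finger protein genes with no other name in the mouse nomenclature. A gene was taken as a member when its symbol had this form, when a probe set carried that symbol alone, and when its best probe set, the one of highest mean over all arrays, had a log2 signal of at least 7 in at least 2 of the 20 arrays. This left 181 of the 329 Zfp genes on the array, out of 18193 genes with such a probe set. No contrast entered this choice, but the rule for this group of genes also speaks of genes that fall and rise in pachynema. The differences of members between pachytene and leptotene-zygotene cells are therefore given as a description with no p-value. Counts of members past the threshold in these contrasts are likewise a description. The values are log2 GC-RMA signals from Affymetrix MOE430 version 2 arrays, on which a difference of 1 corresponds to a doubling of signal.

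Germ cells came from dissociated testes of adult C57BL/6 x DBA/2J F1 males 10 to 16 weeks old and carried no mutation or treatment. They were stained with the vital DNA dye Hoechst 33342 and sorted by fluorescence into 8 fractions that follow the course of meiosis. These were 4 arrays of spermatogonia (Sp), 3 of pre-leptotene (pL), 3 of leptotene-zygotene (LZ), 1 of early-pachytene (eP), 2 of mid-pachytene (mP), 1 of late-pachytene (lP) and 2 of diplotene (D) cells, and 4 of round spermatids (RS). Every array measured RNA of a pool of several sorts, so p-values measure the spread between such pools and not between mice, and the leptotene-zygotene fraction mixes both stages.

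Most Zfp genes encode proteins with tandem C2H2 fingers, each a small loop held by a zinc ion that can contact DNA. Many of them also carry a KRAB domain, which recruits the corepressor Trim28 and through it the histone methyltransferase Setdb1 to silence chromatin, often at transposable elements. KRAB zinc finger genes lie in clusters that arose by duplication. The symbol also covers proteins with other kinds of zinc finger, such as Zfp36 (tristetraprolin, which binds AU-rich mRNAs and promotes their decay) and Zfp185, a LIM domain protein of the actin cytoskeleton. During pachynema the autosomes are fully synapsed and the X and Y chromosomes are silenced in the sex body.

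The median signal per array lay between 11.1 and 12.7 before taking logs, and 34.6% to 39.8% of probe sets reached a signal of 32. Markers of the labelled stages followed the fractions in part. Summed over the 7 spermatogonial markers, the log2 level was 14.65 to 15.32 in spermatogonia, 15.10 to 15.41 in leptotene-zygotene cells, 13.89 to 14.33 in mid-pachytene cells, 10.13 to 11.05 in diplotene cells and 7.70 to 10.38 in round spermatids. The 7 leptotene-zygotene markers summed to 14.73 to 15.15 in mid-pachytene cells, above the 14.11 to 14.61 of leptotene-zygotene cells. The 6 pachytene markers on the array summed to 16.11 to 16.41 in mid-pachytene cells and 13.75 to 14.88 in leptotene-zygotene cells. The 7 spermatid markers went against the labels: they summed to 16.38 to 16.83 in round spermatids and 15.38 to 17.34 in spermatogonia, so those groups overlapped. Summed macrophage markers (5 genes on the array) came to 5.71 to 6.22 in round spermatids, with all 5 genes below log2 5, against 9.53 to 11.11 in spermatogonia. In pre-leptotene cells the sum was 4.87 to 9.38. Both lists therefore bear on comparisons with spermatogonia, and their part in those results was not tested. In bulk samples, fewer cells of a type and less RNA per cell cannot be told apart.

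Across the 8 fractions the Zfp genes were mostly highest before pachynema or from late pachynema on. The same counts were not made for other probe sets, so they do not set the Zfp genes apart. The fraction mean was highest before pachynema for 85 members, in spermatogonia for 26, pre-leptotene cells for 39 and leptotene-zygotene cells for 20. It was highest from early pachynema on for 96 members: 47 in late-pachytene cells, 19 in diplotene cells, 29 in round spermatids, 1 in early-pachytene cells and 0 in mid-pachytene cells. The early- and late-pachytene fractions are 1 array each, so their ranks rest on single arrays. Of the 85 early genes, 60 were lowest in round spermatids. Of the 96 later genes, 54 were lowest before pachynema, 25 in early-pachytene cells and 10 in round spermatids.

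**Figure D1:**
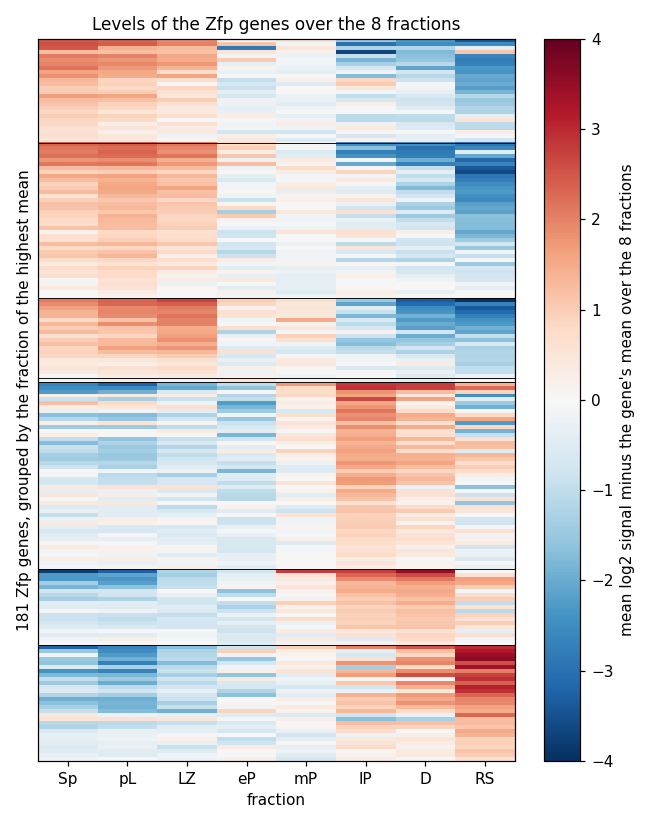
Fraction means of the 181 Zfp genes (rows) in the 8 fractions (columns, from spermatogonia, Sp, to round spermatids, RS), as log2 signal minus the gene's own mean, red above and blue below it; black lines separate the genes by the fraction of their highest mean. The 85 genes of the upper blocks are highest before pachynema and the 96 of the lower blocks from early pachynema on.

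The median level of the members was 7.90 in spermatogonia, 7.97 in pre-leptotene, 7.89 in leptotene-zygotene, 7.26 in early-pachytene, 7.65 in mid-pachytene, 8.07 in late-pachytene and 7.72 in diplotene cells and 7.49 in round spermatids. The medians thus differed by less than 1 while single genes moved much further. The highest and lowest fraction means of a gene lay a median of 2.95 apart, by more than 4 for 44 members and by less than 1 for 8. Zfp217, a component of CoREST corepressor complexes, was among the steady genes. Its arrays read 10.29, 9.77, 9.76 and 10.55 in spermatogonia, 9.69 in early-pachytene cells and 9.24, 9.82, 10.31 and 10.20 in round spermatids, and the groups with replicates overlapped. The round spermatid minus spermatogonia difference was -0.20, with a 95% interval of -0.74 to 0.35.

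Before pachynema no member passed the test, though with either the replicate number or the array project as a block 1 member did at the first step and 3 at the second. In limma, 0 of 181 members differed between pre-leptotene cells and spermatogonia, where 0.487% of all 22396 tested probe sets were called (0.0714% higher and 0.415% lower), and 0.521% of the probe sets at log2 7 or more in 2 arrays. At an unadjusted p under 0.05, 2 members were higher and 7 lower. Between leptotene-zygotene and pre-leptotene cells 0 members were called, against 2.02% of all tested probe sets (1.86% higher and 0.165% lower) and 2.5% of those at that level, and 15 were higher and 5 lower at an unadjusted p under 0.05. The median change of the members was 0.03 at the first step and -0.08 at the second, against 0.02 and 0.00 over all tested probe sets. Leaving out 1 array gave up to 2 calls at the first step (without spermatogonia replicate 4), or 1.1% of the members against 3.24% of all tested probe sets. At the second it gave up to 4 (without leptotene-zygotene replicate 1), or 2.21% against 3.49%. With either block 0.552% of the members were called at the first step and 1.66% at the second. Of all tested probe sets 4.14% and 4.45% were called with the replicate block, and 4.04% and 4.6% with the project block.

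At pachynema some Zfp genes lay higher and others lower. Between mid-pachytene and leptotene-zygotene cells 27 members were higher and 29 lower past the threshold used for all probe sets (an adjusted p of 0.05), together 30.9% of the members, where 28.9% of all tested probe sets were called (13.7% higher and 15.3% lower), and 33.8% of those at log2 7 or more in 2 arrays. The rule for this group of genes speaks of falls and rises at pachynema, so nothing is read from the share. Without leptotene-zygotene replicate 1 the count was 35, or 19.3% of the members against 20.8% of all tested probe sets. It also dropped without mid-pachytene replicate 2, which leaves 1 array in that fraction, as did the share of all tested probe sets.

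Zfp389 stood out among the genes with higher signals. In the RefSeq annotation it is a transcribed pseudogene on chromosome 13, the only member that is not protein-coding, and it has a single probe set. Its log2 signal was 5.11, 4.29, 4.06 and 4.81 in spermatogonia, 4.90, 5.75 and 4.64 in pre-leptotene cells, 6.71, 7.53 and 7.09 in leptotene-zygotene cells and 7.62 in the early-pachytene array. It then reached 9.90 and 12.41 in mid-pachytene cells, 11.13 in late-pachytene cells and 10.96 and 12.76 in diplotene cells, and stood at 8.34, 8.35, 8.80 and 7.75 in round spermatids. Every array from mid-pachynema to diplonema was above every other array of the gene. The mid-pachytene mean lay 4.04 ± 0.64 (SE) above the leptotene-zygotene mean, and both late replicate pairs were spread by over 1.

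Zfp608, a large zinc finger protein related to Zfp609, read 9.20 and 9.47 in mid-pachytene cells, against 5.03, 5.76 and 6.65 in leptotene-zygotene cells, a difference of 3.52 ± 0.49. Its level in the earlier fractions lay between 3.91 and 5.61. Zfp54 read 6.87 and 5.51 in mid-pachytene cells and 3.10, 2.90 and 3.99 in leptotene-zygotene cells. Its arrays before pachynema were all near the bottom of the scale, and with values under 5 raised to 5 the difference of 2.86 became 1.19. Zfp354b, a member of a family of KRAB zinc finger genes, read 6.97 and 7.79 in mid-pachytene cells and 3.79, 3.81 and 6.68 in leptotene-zygotene cells, with leptotene-zygotene replicate 3 apart from the other two. Zfp423, which acts with BMP and retinoic acid signaling and is needed for cerebellar growth, read 7.99 and 8.0 in mid-pachytene cells, against 5.26, 5.48 and 7.40 in leptotene-zygotene cells. The same leptotene-zygotene replicate 3 was again the high one. These genes were picked from members whose groups did not overlap, so their separation is not a finding.

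Further genes of this kind were Zfp94 (higher by 2.15, or 0.77 with low values raised to 5), Zfp13 (2.05), Zfp318 (1.94), Zfp939 (1.76) and Zfp42 (1.61). Zfp318, known in B cells for its part in the choice between IgM and IgD transcripts, read 11.73 and 11.75 in mid-pachytene cells and 9.37, 9.80 and 10.24 in leptotene-zygotene cells. With the mean of its 5 probe sets the difference was 0.89. Zfp42, or Rex1, a marker of pluripotent cells, read 8.96 and 9.26 in mid-pachytene cells and 7.39, 7.59 and 7.52 in leptotene-zygotene cells. Its late-pachytene array was higher still at 10.09. Zfp541, which acts with Kctd19 in a histone deacetylase complex needed for spermatocytes to leave pachynema, read 9.46 and 10.19 in mid-pachytene cells, against 7.46, 8.66 and 9.0 in leptotene-zygotene cells. The early-pachytene array was at 9.50 and the late-pachytene array at 10.61. Its difference was 1.45, and 0.99 without leptotene-zygotene replicate 1.

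Among the genes with lower signals 2 X-linked members, Zfp185 and Zfp711, had the largest differences. Zfp711, a relative of Zfx and Zfy, read 8.87 and 7.95 in mid-pachytene cells, against 10.62, 10.62 and 11.08 in leptotene-zygotene cells, a difference of -2.36 ± 0.33. It was at 9.24 in the early-pachytene and 6.22 in the late-pachytene array. Zfp185 read 6.18 and 4.51 in mid-pachytene cells and 7.81, 7.71 and 8.38 in leptotene-zygotene cells, a difference of -2.62 ± 0.44, and was at 3.42 in the late-pachytene array. The third X-linked member, Zfp275, read 5.64 and 4.44 in mid-pachytene cells and 6.76, 6.49 and 6.69 in leptotene-zygotene cells. All 3 were highest before pachynema. In none did the arrays of these 2 fractions overlap, but this held for all 29 members past the threshold with lower signals. Nothing is therefore read from that separation. Zfp275 met the level rule through spermatogonia alone, and Zfp185 through no array from mid-pachynema on. High levels in earlier fractions were thus part of how these 2 genes were chosen. The difference of Zfp275 was -1.60, and -1.0 without mid-pachytene replicate 2.

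The autosomal members with lower signals included chromatin and developmental regulators. Zfp518b, whose human counterpart binds the histone methyltransferase G9a, read 8.76 and 8.32 in mid-pachytene cells, against 10.04, 10.76 and 10.85 in leptotene-zygotene cells. Zfp292, a large zinc finger protein that in humans is linked to neurodevelopmental disorders, read 8.30 and 7.73 in mid-pachytene cells and 9.83, 10.35 and 9.83 in leptotene-zygotene cells. Zfp652, which in humans works with the corepressor CBFA2T3, read 8.13 and 7.94 in mid-pachytene cells and 9.58, 10.60 and 10.01 in leptotene-zygotene cells. The differences were -2.01, -1.99 and -2.03, and separate groups were a condition for naming these genes. For genes with several probe sets the size depended on the probe set: with their mean the differences were -0.98 for Zfp518b and -0.64 for Zfp652. Zfp362 (-2.13), Zfp266 (-2.0) and Zfp740 (-1.98) had the same shape, and Zfp469 (-2.27) and Zfp566 (-1.87) met the level rule through fractions before pachynema only.

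**Figure D2:**
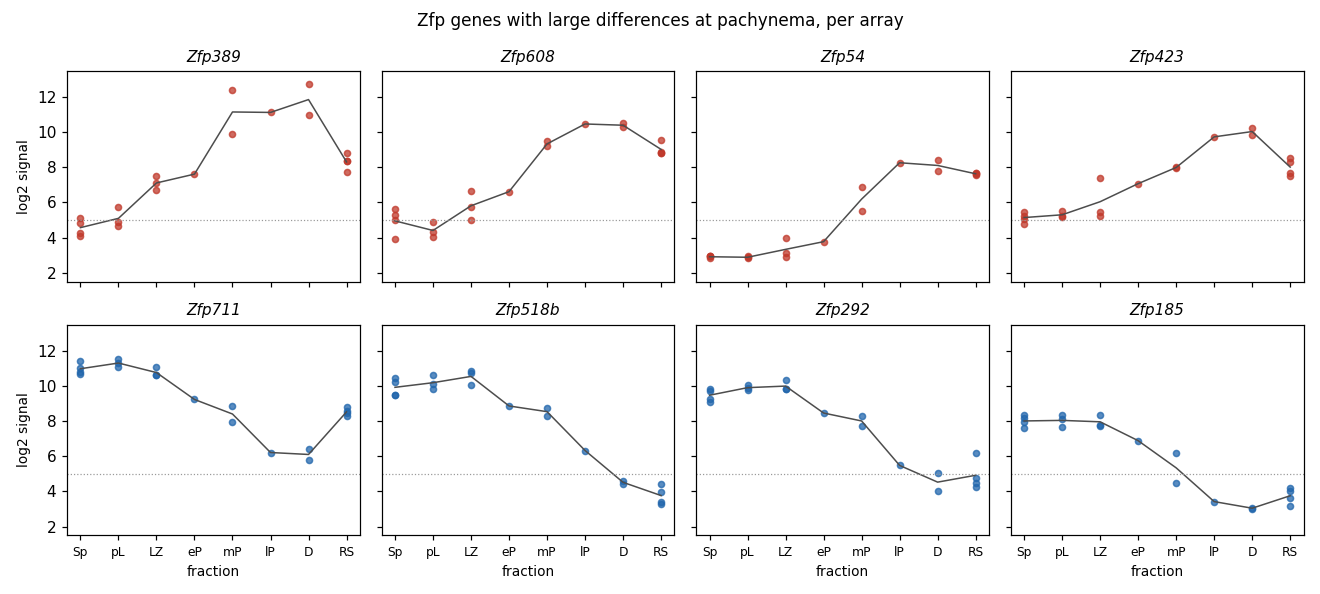
Log2 signal of 8 Zfp genes in each of the 20 arrays (points) over the fractions Sp, pL, LZ, eP, mP, lP, D and RS, with a line through the fraction means and a dotted line at log2 5; red panels hold genes above and blue panels genes below their leptotene-zygotene level at mid-pachynema. Zfp389 lies at 9.90 and 12.41 in mid-pachytene cells, above all of its arrays before, and Zfp711 falls to 6.22 in late-pachytene cells and is above 8 again in round spermatids.

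The early-pachytene array gave an earlier view of the same genes. Against leptotene-zygotene cells 10 members were lower and 0 higher, 5.52% of the members where 4.76% of all tested probe sets were called (1.62% higher and 3.14% lower) and 5.02% of those at log2 7 or more in 2 arrays. When the arrays were normalized again by quantiles the split was 4 higher and 5 lower, and with each array centered on its median it was 3 and 5, so the balance of higher and lower members depended on the scaling. The median of all tested probe sets was -0.26 here. Among the 10 was Zfp36, at 4.04 in the early-pachytene array and at 8.42, 7.60 and 8.34 in leptotene-zygotene cells. Another was Zfp451, a SUMO ligase, at 8.22 in the early-pachytene array and at 10.10, 10.03 and 10.11 in leptotene-zygotene cells. Zfp148, which binds GC-rich promoters, read 7.28 in the early-pachytene array and 8.89, 9.43 and 9.06 in leptotene-zygotene cells. Without leptotene-zygotene replicate 2 just 1 of the 10 calls was made, and without replicate 1 it was 3. With the array project as a block it was 4. These were 0.552%, 1.66% and 2.21% of the members, where 0.844%, 1.87% and 1.56% of all tested probe sets were called. The count was larger, at 13 (5 higher and 8 lower), without leptotene-zygotene replicate 3. It was 28 (2 and 26) with values under 5 raised to 5 and 19 (2 and 17) on the scale log2(signal + 16). These were 7.18%, 15.5% and 10.5% of the members, where 8.18%, 9.22% and 7.3% of all tested probe sets were called.

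Promoter sequence was looked at for members that moved together. RefSeq promoter windows (GRCm38.p6, 250 bases before to 50 after the start, written in the direction of transcription) were found for 145 of the 181 members, and the first window listed for a gene was used. The 4 windows here show a match to AACNGNC, the core bound by MYB factors, in capitals on whichever strand it lies. Mybl1 of this family is an activator of many genes at pachynema. Zfp541, Zfp423 and Zfp54 were higher and Zfp266 was lower in mid-pachytene cells, and the windows are shown to set the same letters side by side in genes of both kinds.
Zfp541 (chr7:16071595-16071894, plus strand): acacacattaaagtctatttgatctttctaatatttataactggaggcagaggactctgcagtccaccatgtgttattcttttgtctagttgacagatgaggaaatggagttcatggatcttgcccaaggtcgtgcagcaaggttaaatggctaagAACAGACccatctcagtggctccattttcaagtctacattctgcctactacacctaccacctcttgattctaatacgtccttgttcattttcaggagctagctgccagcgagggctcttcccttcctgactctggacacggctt
Zfp423 (chr8:87959546-87959845, minus strand): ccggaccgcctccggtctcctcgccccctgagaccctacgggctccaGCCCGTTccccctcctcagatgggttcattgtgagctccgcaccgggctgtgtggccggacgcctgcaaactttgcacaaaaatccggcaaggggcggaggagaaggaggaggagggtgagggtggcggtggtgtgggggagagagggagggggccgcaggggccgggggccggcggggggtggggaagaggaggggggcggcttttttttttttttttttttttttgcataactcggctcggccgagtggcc
Zfp54 (chr17:21422977-21423276, plus strand): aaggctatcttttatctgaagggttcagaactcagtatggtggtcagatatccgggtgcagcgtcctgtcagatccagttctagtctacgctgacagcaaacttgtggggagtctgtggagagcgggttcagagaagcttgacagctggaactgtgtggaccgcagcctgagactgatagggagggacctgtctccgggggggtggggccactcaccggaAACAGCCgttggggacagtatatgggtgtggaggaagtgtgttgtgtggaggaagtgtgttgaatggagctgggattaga
Zfp266 (chr9:20521370-20521669, minus strand): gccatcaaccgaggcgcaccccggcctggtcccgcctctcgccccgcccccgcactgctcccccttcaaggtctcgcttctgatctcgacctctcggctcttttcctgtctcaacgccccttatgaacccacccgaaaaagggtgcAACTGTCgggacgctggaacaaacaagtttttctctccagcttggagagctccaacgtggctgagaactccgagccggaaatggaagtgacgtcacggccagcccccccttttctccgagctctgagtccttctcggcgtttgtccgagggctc

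AACNGNC was present on either strand in 8 of 19 windows of members higher in mid-pachytene cells (42.1%), in 9 of 22 of members lower (40.9%) and in 37 of 104 of the others (35.6%), against 32.2% of the 17491 windows of protein-coding genes. The shares of the higher and the lower genes were thus alike. AAGATGGC, the core bound by Yy1, was in 0 of 19 windows of the members higher, 3 of 22 of those lower and 8.28% of all member windows, against 3.22% of protein-coding genes. TCTCGCG was in 6.21% of member windows against 3.64%, TGACGTCA, the palindrome bound by Crem and Creb, in 2.07% against 2.34%, and GTTGCCNNG, part of the site of RFX factors, in 4.83% against 5.16%. The windows of members held a median of 17 CG dinucleotides and those of protein-coding genes 13. All letters were searched on both strands, the shares were not tested, and a match describes the letters only.

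Between diplotene and mid-pachytene cells, which the rule did not use, 53 members passed the test in limma, 27 higher and 26 lower. This was 29.3% of the members, against 19.3% of all tested probe sets and 22.3% of probe sets that met the same level of 7 in 2 arrays. For members higher in diplotene cells the share was 14.9%, against 6.56% of all tested probe sets, and for members lower 14.4%, against 12.7%. Replicate 1 of both fractions came from array project 4 and replicate 2 of both from project 6, which the main fit does not take into account. With the array project as a block 42 members were higher and 35 lower, or 42.5% of the members against 30.4% of all tested probe sets. In the main fit the larger share of higher members rested on single arrays, and leaving out 1 array also breaks up the shared projects. Without mid-pachytene replicate 2 the split was 7 higher and 21 lower, or 15.5% of the members against 16.2% of all tested probe sets, and without diplotene replicate 1 it was 7 and 22, or 16.0% against 15.9%. Without mid-pachytene replicate 1 it was 15 higher and 9 lower (13.3% against 8.48%), and without diplotene replicate 2 it was 14 and 14 (15.5% against 8.99%). The median change of the members was 0.21 and that of all tested probe sets -0.02. The split moved to 32 higher and 19 lower after a second quantile normalization and to 38 and 20 with each array centered on its median.

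Zfp78 read 7.37 and 7.27 in diplotene cells, against 4.69 and 3.90 in mid-pachytene cells, a rise of 3.02 ± 0.47 (adjusted p = 0.000423). In every fraction before pachynema it lay between 2.55 and 4.57. Zfp189 read 8.56 and 8.51 in diplotene cells and 6.43 and 6.27 in mid-pachytene cells, a rise of 2.19 ± 0.38 (adjusted p = 0.000934). Separate pairs of arrays were a condition for naming both genes. Zfp78 and Zfp189 stayed high in round spermatids, at 7.29 to 7.53 and 8.76 to 9.26. Zfp423 rose further to 10.23 and 9.85 in diplotene cells (adjusted p = 0.0148), as did Zfp54 to 8.43 and 7.79 (adjusted p = 0.00366). Zfp39 read 9.90 and 10.0 in diplotene cells and 7.69 and 7.95 in mid-pachytene cells, with an adjusted p of 0.0203 that was not reached without any of the 4 arrays (adjusted p between 0.0549 and 0.122). The calls of Zfp423 and Zfp94 were lost in the same way, and that of Zfp54 without mid-pachytene replicate 2, where its change was 1.23. With the mean of its probe sets Zfp54 changed by 0.62 and was not called. Zfp558 read 5.62 and 5.77 in diplotene cells and 3.37 and 3.80 in mid-pachytene cells, and with low values raised to 5 its change of 2.11 became 0.69 (adjusted p = 0.165).

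The falls at this step reached larger sizes than the rises. All 7 spermatogonial markers were also lower in diplotene than in mid-pachytene cells, with a median change of -4.02, as were 2 of the 3 tested peritubular markers (median change -2.16), and their part in the members' falls was not tested. The peritubular markers summed to 8.23 to 8.30 in diplotene cells, against 10.57 to 10.91 in mid-pachytene cells. Zfp518b read 4.44 and 4.60 in diplotene cells, against 8.76 and 8.32 in mid-pachytene cells, a change of -4.02 ± 0.44 (adjusted p = 4.55e-05). Zfp292 read 4.02 and 5.04 in diplotene cells and 8.30 and 7.73 in mid-pachytene cells, a change of -3.48 ± 0.52 (adjusted p = 0.000325). Zfp142 read 5.60 and 4.61 in diplotene cells and 8.64 and 7.54 in mid-pachytene cells, a change of -2.98 ± 0.57 (adjusted p = 0.00197). These 3 genes were named from members whose groups did not overlap. The gap between groups also exceeded the spread within them, and the late-pachytene array lay between the groups at 6.33, 5.48 and 7.15. With the mean of all probe sets of a gene the changes were -1.90 for Zfp518b, -2.11 for Zfp292 and -0.83 for Zfp142. Zfp462, another developmental regulator, read 3.43 and 4.64 in diplotene cells and 8.44 and 7.18 in mid-pachytene cells, and its call (adjusted p = 0.0321) was lost without any of the 4 arrays, with low values raised to 5, without the filter on low probe sets, after a second quantile normalization and with the mean of its probe sets. Of the X-linked members, Zfp711 fell to 6.42 and 5.79 in diplotene cells (adjusted p = 0.000479) and Zfp185 to 3.01 and 3.09 (adjusted p = 0.00343). The fall of Zfp185 was 2.30 on the log2 scale, and its call was lost without mid-pachytene replicate 1, where the change was -1.46, with values under 5 raised to 5 (-0.59) and with the mean of its probe sets (-1.22). Averaged over probe sets, Zfp711 changed by -1.16.

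**Figure D3:**
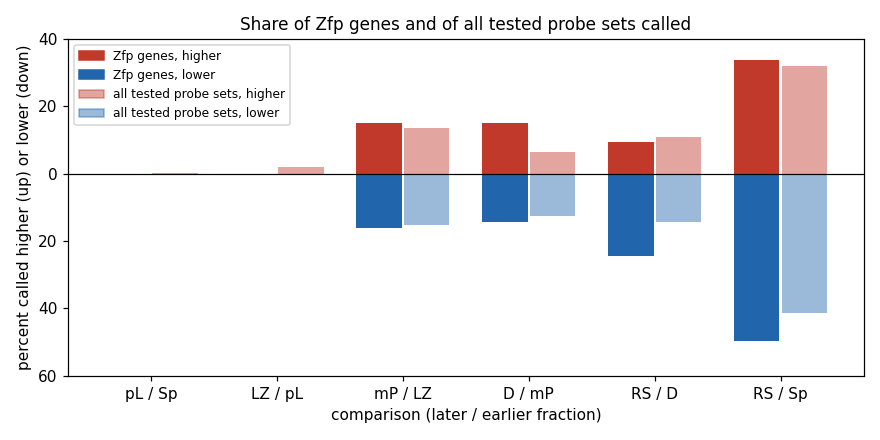
Percent of the 181 Zfp genes (dark bars) and of the 22396 tested probe sets (pale bars) called higher (red, upward) or lower (blue, downward) at an adjusted p of 0.05, for 6 comparisons of a later with an earlier fraction; the mP / LZ bars are a description, since the genes were chosen with this contrast in view. In diplotene against mid-pachytene cells (D / mP) 14.9% of Zfp genes and 6.56% of probe sets were higher, though only 7 of the 181 genes without mid-pachytene replicate 2 or without diplotene replicate 1, and in round spermatids against diplotene cells (RS / D) 24.3% and 14.2% were lower.

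In round spermatids the balance shifted toward lower signals. Against diplotene cells 61 members passed the test, 17 higher and 44 lower, or 33.7% of the members, against 25.1% of all tested probe sets and 27.2% of those meeting the same level. The members lower made up 24.3%, against 14.2% of all tested probe sets, and the members higher 9.39%, against 10.9%. The median change of the members was -0.47, against -0.10. Of the 9 members whose level of 7 was met only through the higher fraction, 6 were higher and 3 lower, and without them the counts were 11 and 41. Without diplotene replicate 1 only 24 members were called, 8 higher and 16 lower, or 13.3% of the members against 11.4% of all tested probe sets.

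Zfp389 fell to 8.34, 8.35, 8.80 and 7.75 in round spermatids, against 10.96 and 12.76 in diplotene cells, a change of -3.55 ± 0.61 (adjusted p = 0.000655). Zfp770 read 5.63, 5.25, 3.71 and 5.43 in round spermatids and 8.78 and 7.65 in diplotene cells, a change of -3.21 ± 0.48 (adjusted p = 0.000241). Zfp612 read 7.21, 6.31, 5.56 and 6.90 in round spermatids and 9.65 and 9.13 in diplotene cells, a change of -2.90 ± 0.42 (adjusted p = 0.000179). That no round spermatid array of these genes reached a diplotene array was a condition of their choice. Zfp770 read 9.04 to 9.97 in spermatogonia and Zfp612 8.65 to 9.42, also above all round spermatid arrays. The mean of its probe sets gave Zfp770 a change of -1.62. Zfp326, a member of the DBIRD complex that links RNA polymerase II to splicing, read 5.80, 5.47, 5.37 and 5.27 in round spermatids, against 9.0 and 7.65 in diplotene cells (adjusted p = 0.0014). Without diplotene replicate 1 its change was -2.17 (adjusted p = 0.0503). Zfp423 fell as well, to 8.31, 7.67, 8.54 and 7.53 in round spermatids (adjusted p = 0.0052), and its call was also lost without diplotene replicate 1 (adjusted p = 0.0711).

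Zfp704 had a dip and a return. It read 8.50, 7.72, 7.84 and 7.01 in round spermatids and 4.43 and 5.37 in diplotene cells, a rise of 2.87 ± 0.38 (adjusted p = 9.71e-05). Its late-pachytene array was at 2.98, and in spermatogonia it read 8.12, 8.26, 7.30 and 7.95, a range that overlapped that of round spermatids. The X-linked Zfp711 behaved alike, with 8.31, 8.46, 8.56 and 8.80 in round spermatids and 6.42 and 5.79 in diplotene cells, a rise of 2.43 ± 0.31 (adjusted p = 8.04e-05). Averaged over probe sets, the rises were 1.51 for Zfp704 and 1.25 for Zfp711. Zfp711 remained below spermatogonia, where it read 10.79, 10.69, 11.43 and 11.05. The other X-linked members gave no such call: Zfp185 read 4.04, 4.20, 3.15 and 3.64 in round spermatids and 3.01 and 3.09 in diplotene cells, and Zfp275 4.36, 2.65, 2.68 and 2.59 in round spermatids and 4.47 and 3.45 in diplotene cells, all of them below log2 5.

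Several members were at their highest in round spermatids. Zfp37, long known as a testis-expressed zinc finger gene, read 11.55, 11.21, 10.93 and 10.81 in round spermatids, against 9.01 and 9.23 in diplotene cells, a rise of 2.01 ± 0.52 (adjusted p = 0.0103). Zfp474 read 9.88, 9.52, 9.47 and 9.36 in round spermatids and 6.52 and 7.39 in diplotene cells, a rise of 2.60 ± 0.67 (adjusted p = 0.0094). Zfp949 read 9.27, 9.74, 10.16 and 9.31 in round spermatids and 7.19 and 8.48 in diplotene cells (adjusted p = 0.0207). The groups were separate in each, yet all of these calls were lost without diplotene replicate 1, with adjusted p of 0.0948 for Zfp37 and 0.127 for Zfp474, and Zfp949 changed by 1.14 instead of 1.79. Zfp949 also lost its call without round spermatid replicate 3. Separate groups were a condition for listing Zfp474 among the largest rises at this step. Averaged over probe sets, the rises were 0.83 for Zfp37 and 0.98 for Zfp949.

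Zfp57, Zfp58, Zfp819 and Zfp558 met the level rule through round spermatids alone, as did Zfp458 (named after its values were seen), so that they had to be high there and are described without a test. Zfp57, which with Trim28 keeps the methylation of imprinted regions in early embryos, read 8.21, 8.18, 6.30 and 6.89 in round spermatids and 4.80 and 4.36 in diplotene cells, and was between 2.78 and 4.81 in every other array. Zfp819, known in pluripotent cells for repression of transposable elements, read 8.17, 7.96, 7.65 and 7.78 in round spermatids and 5.08 and 5.68 in diplotene cells. Zfp58 read 8.21, 8.60, 8.27 and 7.51 in round spermatids, against 5.68 and 5.51 in diplotene cells. Signals in the earlier fractions lay near or below log2 5 in most arrays of Zfp57 and Zfp819, whereas Zfp58 was between 5.03 and 6.84.

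**Figure D4:**
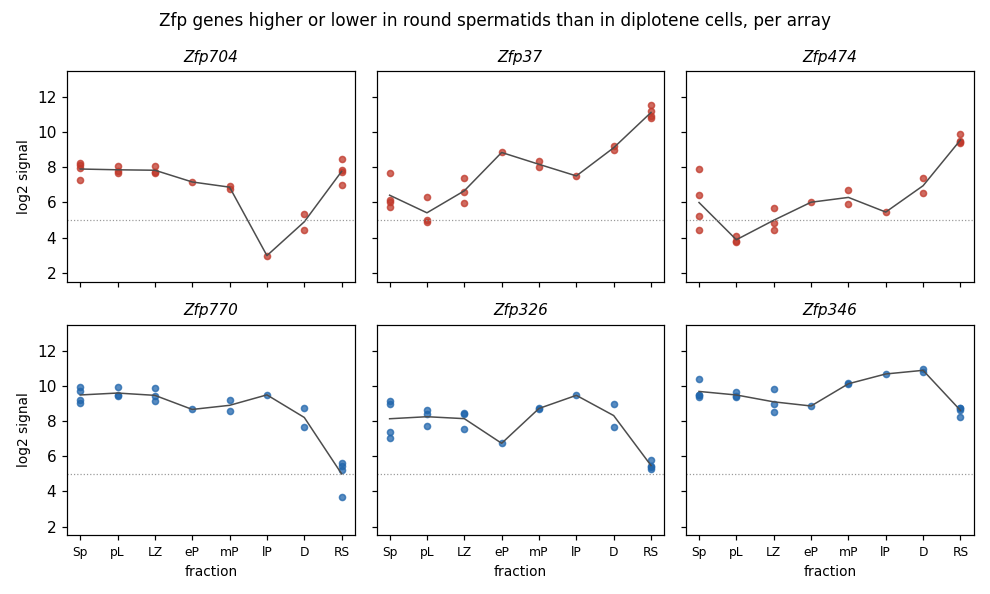
Log2 signal of 6 Zfp genes in each array (points) over the 8 fractions from Sp to RS, with a line through the fraction means and a dotted line at log2 5; red panels are genes higher and blue panels genes lower in round spermatids than in diplotene cells. Zfp704 dips to 2.98 in the late-pachytene array and reads 7.01 to 8.50 in round spermatids, and Zfp326 is at 5.80 or below only in round spermatids.

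Between the ends of the course, round spermatids and spermatogonia, 151 members differed, 61 higher and 90 lower, which is 83.4% of the members against 73% of all tested probe sets and 78.2% of those meeting the same level. The members higher made up 33.7%, against 31.9%, and the members lower 49.7%, against 41.2%. The median changes were -0.60 for the members and -0.32 for all tested probe sets, and centering each array on its median moved the latter to 0.14. The 12 members at log2 7 only on the higher side gave 5 of the calls higher and 6 of the calls lower. Leaving out any array gave 147 to 151 calls. As given above, spermatid transcripts were as abundant in some spermatogonia arrays as in round spermatids, and macrophage markers were high in spermatogonia.

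Zfp354b read 9.20, 9.49, 9.31 and 9.67 in round spermatids and 3.25, 3.32, 2.99 and 3.17 in spermatogonia, a rise of 6.23 ± 0.48 (adjusted p = 1.14e-08). Zfp37 rose by 4.71 ± 0.43 (adjusted p = 6.05e-08), with spermatogonia at 5.77, 7.70, 6.15 and 6.04. Zfp54 read 7.58, 7.68, 7.62 and 7.66 in round spermatids and 2.93, 2.94, 2.93 and 2.84 in spermatogonia (adjusted p = 1.29e-09), a rise of 4.72, or of 2.63 with values under 5 raised to 5 and 1.70 with the mean of its probe sets. Zfp541 read 10.96, 11.06, 11.39 and 11.80 in round spermatids and 6.41, 7.46, 6.83 and 6.91 in spermatogonia, a rise of 4.40 ± 0.39 (adjusted p = 5.4e-08). These genes were thus far above the scatter of their arrays and, apart from Zfp37, had reached most of their height by late pachynema. Zfp949 rose by 5.07 ± 0.43 (adjusted p = 2.92e-08).

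In the other direction, Zfp518b read 4.40, 3.29, 3.43 and 3.95 in round spermatids and 9.51, 9.51, 10.25 and 10.45 in spermatogonia, a change of -6.16 ± 0.31 (adjusted p = 3.38e-10). Zfp280b read 4.74, 2.97, 3.09 and 2.98 in round spermatids and 8.95, 9.11, 9.89 and 9.25 in spermatogonia, a change of -5.85 ± 0.41 (adjusted p = 4.09e-09). Zfp266 changed by -5.25 ± 0.29 (adjusted p = 6.63e-10) and Zfp362 by -5.05 ± 0.46 (adjusted p = 7.06e-08). All round spermatid arrays of these genes were below log2 5. With the mean of its probe sets the change of Zfp518b was -3.07. With values under 5 raised to 5 the changes were -4.93 for Zfp518b, -4.30 for Zfp280b, -3.55 for Zfp266 and -3.76 for Zfp362.

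The next genes come from a list of members with a known role. Zfp622, a factor of ribosome maturation, read 10.48, 9.35, 9.29 and 8.95 in round spermatids, against 12.90, 12.65, 12.75 and 12.56 in spermatogonia (adjusted p = 2.6e-07). Zfp598, the ubiquitin ligase that marks collided ribosomes, read 9.05, 8.99, 8.89 and 9.13 in round spermatids and 10.20, 10.58, 10.61 and 10.09 in spermatogonia (adjusted p = 1.93e-05). Neither pair of groups overlapped, and the decline of Zfp622 was larger. Zfp638, an RNA- and DNA-binding protein that represses unintegrated retroviral DNA, lay between 10.17 and 11.03 in all fractions through diplonema and read 8.56, 8.89, 8.70 and 9.18 in round spermatids, against 10.17 and 10.46 in diplotene cells (adjusted p = 0.000655). Zfp346, which binds double-stranded RNA, fell to 8.77, 8.66, 8.77 and 8.27 in round spermatids, against 10.99 and 10.81 in diplotene cells (adjusted p = 0.000266). Zfp207, or BuGZ, which helps chromosomes attach to the spindle, changed by -1.46 against spermatogonia (adjusted p = 9.43e-05), though by -0.15 with the mean of its 6 probe sets. Zfp91, a ubiquitin ligase, rose against spermatogonia by 0.80 ± 0.20 (adjusted p = 0.00205), and Zfp830, a nuclear protein needed in early embryos, by 1.64 ± 0.19 (adjusted p = 7.71e-07).

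Genes with a role in silencing or pluripotency did not share a course. Zfp568, which represses a placental transcript of Igf2, read 4.95, 3.31, 3.34 and 3.81 in round spermatids, against 6.65 and 5.92 in diplotene cells (adjusted p = 0.00125). Zfp809, which recruits Trim28 to retroviral DNA, lay between 5.28 and 8.23 in all 20 arrays and was not called in any comparison between round spermatids and diplotene cells (7.42, 6.93, 6.24 and 6.24 against 8.09 and 6.64) or spermatogonia (interval of the difference -0.56 to 1.18). Zfp281, which binds GC-rich sites and restrains pluripotency genes, read 8.18, 8.32, 7.88 and 8.21 in round spermatids and 9.11 and 9.36 in diplotene cells (adjusted p = 0.00547, and 0.0564 without diplotene replicate 2). Zfp35 and Zfp59, both early described as testis-expressed, rose by 2.83 ± 0.20 (adjusted p = 4.04e-09) and 2.23 ± 0.22 (adjusted p = 1.46e-07) against spermatogonia. Zfp105, another testis-expressed gene, rose by 2.29 ± 0.26 (adjusted p = 8.31e-07). Zfp131 fell by 1.35 (adjusted p = 4.8e-05) and Zfp335, a chromatin regulator known in brain growth, by 2.05 (adjusted p = 1.32e-05) on the log2 scale. Zfp35 read 11, 10.90, 10.88 and 10.80 in round spermatids and 8.27, 8.25, 7.66 and 8.09 in spermatogonia.

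The partners through which KRAB proteins act were a separate list of 18 symbols, with Tasor also under its older symbol Fam208a. Of these 16 were tested. Trim28 itself changed little: the differences were 0.02 between mid-pachytene and leptotene-zygotene cells, -0.20 between round spermatids and diplotene cells and -0.06 between round spermatids and spermatogonia, none of them called. Setdb1 changed by -1.35 ± 0.26 between round spermatids and spermatogonia and passed the test there. Of the 16 partners 5 were lower and 1 higher in round spermatids than in diplotene cells, where 14.2% of all tested probe sets were lower and 10.9% higher. The lower ones were Dnmt1, the maintenance DNA methyltransferase (-2.33 ± 0.32, adjusted p = 0.00011), Cbx1 and Cbx5, heterochromatin proteins (-1.91 and -1.75), and Mphosph8 and Tasor of the HUSH complex (-1.49 and -1.13). Pphln1, also of HUSH, was higher by 1.86 ± 0.24 (adjusted p = 8.15e-05). In mid-pachytene against leptotene-zygotene cells 2 of the 16 were lower and 0 higher, against 15.3% and 13.7% of all tested probe sets. Of the 3 tested partners of Zfp541, Dnttip1 was higher and Hdac2 lower in mid-pachytene cells, while Hdac1 was not called.

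Families of related genes showed the following counts in diplotene against mid-pachytene cells, where 6.56% of all tested probe sets were higher and 12.7% lower. Of 31 Zbtb genes, with a BTB domain before the fingers, 4 were higher and 3 lower. Of 7 Zscan genes, with a SCAN domain, 5 were higher and 0 lower, with a median change of 1.15. Of 7 Zkscan genes none was called in either direction at a median of 0.51 (Zkscan genes carry both SCAN and KRAB domains), and of 9 Zc3h genes, with CCCH fingers, 0 were higher and 2 lower. In a list of 10 tested zinc finger genes with other names, 1 was higher and 3 lower at this step. These lists were not refitted without single arrays, on which the members' counts at this step depended. In round spermatids against diplotene cells 10.9% of all tested probe sets were higher and 14.2% lower. There the counts higher and lower were 0 and 7 for Zbtb, 0 and 0 for Zscan, 0 and 3 for Zkscan, 0 and 1 for Zc3h and 2 and 1 for the other list. Zfx and Zfy2, the sex-linked relatives of Zfp711, were higher in round spermatids than in diplotene cells, by 1.64 ± 0.36 (adjusted p = 0.00366) and 2.42 ± 0.42 (adjusted p = 0.000683).

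By chromosome, in the RefSeq annotation, the members were most numerous on chromosome 7 with 36. Of these 26 were highest from early pachynema on and 10 before, where 96 and 85 of all 181 members were. Chromosome 17 held 20 members, 12 of them highest late. Chromosome 8 held 14, of which 9 were highest before pachynema. Members that are direct neighbors in the annotation formed 26 pairs. In 14 of them both genes peaked on the same side of pachynema, in 10 late and in 4 early, and 12 pairs were split. Some genes are in more than 1 pair and no share for unrelated members was computed, so nothing is read from this split. In the neighbors Zfp13 and Zfp213 the signals moved in opposite directions at mid-pachynema. Zfp13 read 6.43 and 5.90 in mid-pachytene cells and 4.15, 4.52 and 3.69 in leptotene-zygotene cells, and Zfp213 5.28 and 3.71 in mid-pachytene cells and 6.28, 6.03 and 6.04 in leptotene-zygotene cells. Both differences rest on signals near background, with low values raised to 5 giving 1.17 and -0.97. Zfp213 also met the level rule through spermatogonia alone.

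Of the 181 members 98 had several probe sets, and the others gave a check on the best one. In diplotene against mid-pachytene cells 19 of the 53 called members had other tested probe sets. All 30 of these had the sign of the best one, but only 13 were called. In round spermatids against diplotene cells, for 20 of 61 called members, 18 of 27 had the same sign and 7 were also called. In round spermatids against spermatogonia, for 50 of 151, 70 of 82 had the same sign and 56 were also called. For Zfp106 and Zfp597 another probe set was called there in the opposite direction. For Zfp106 the change of -1.57 became 0.20 with the mean of its probe sets.

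The level rule itself was met narrowly by some genes. By the second highest array, Zfp213 (7.04), Zfp87 (7.05) and Zfp11 (7.07) were just inside, and Zfp787 (6.99), Zfp64 (6.99) and Zfp712 (6.92) just outside. Zfp64, not a member, read 6.99, 6.71, 7.71 and 5.57 in spermatogonia and 2.68 to 2.73 in round spermatids. Of the 148 Zfp genes outside, 68 did not reach log2 5 in any array, and 66 reached it in at least 2 arrays.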

How the data were processed

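RNA of 20 pools of sorted mouse testis cells was hybridised to Affymetrix MOE430 version 2 arrays. The authors deposited 1 signal intensity per probe set and array on the linear scale, computed by GC-RMA (named in the submitters' processing notes; version not given in the sources used here). GC-RMA subtracts a background modelled on probe sequence and makes the arrays alike by quantiles, so signals near background carry little information and all changes are relative. The table held 45037 probe sets, 34945 of them with 1 symbol in the platform annotation and 932 with several, which named no gene.

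Signals were taken to log2. A linear model with 1 mean per fraction was fitted to all 20 arrays in limma 3.58.1 (R 4.3.3), with moderated variances (12 degrees of freedom from the arrays and 3.69 from the prior), on the 22396 probe sets with log2 of at least 5 in at least 2 arrays, two-sided, with Benjamini-Hochberg adjustment at 0.05. Fractions with a single array take their spread from the other fractions, and the number of arrays limits the precision. Python 3.11.15 with pandas 2.3.3 and matplotlib 3.10.9 made counts and plots. Symbols and chromosomes of all 181 members were found in RefSeq. Members named were Zfp389, the largest rises and falls, X-linked members, a list of genes of known role and those next to the level rule. The rises and falls were the 10 largest each way at mid-pachynema and the 4 largest each way at each tested comparison. They were taken only from called members whose arrays in the 2 fractions did not overlap. The separation of their arrays therefore follows from the choice. Members, gene lists and tests were chosen with earlier results of these data known. Replicate numbers come from the labels, and array projects from the column names of a supplementary table, matched by equal signals. Same-numbered arrays were not treated as pairs in the main fit, although their deviations from the fraction means mostly went together. The correlation had a median of 0.33 in same-numbered pairs and -0.11 in others. It was over 0.1 in 33 of 37 same-numbered pairs, with the lowest at -0.17. The main fit takes no account of what such arrays share. Protein features of the members were not analysed here.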

Additional observations from a re-analysis of the deposited data

Results flagged for a closer look

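In groups of 4 arrays, 11 arrays of named members stood apart by Dixon's criterion among 124 groups checked, where chance marks about 1 in 20. In round spermatids, replicate 1 was the highest array for Zfp266 (3.89), Zfp275 (4.36), Zfp280b (4.74), Zfp362 (4.87) and Zfp608 (9.56) and the lowest for Zfp207 (8.79). Replicate 4 was the highest for Zfp462 (5.68). In spermatogonia, replicate 3 was the highest for Zfp346 (10.40) and replicate 2 for Zfp57 (3.95), and replicate 4 was the lowest for Zfp54 (2.84) and Zfp78 (2.72). Apart from Zfp346, Zfp608, Zfp207 and Zfp462 these signals were below log2 5.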

How the results depend on the processing

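Counts of members called were 0, 0, 53, 61, 151, 56 and 10 in pre-leptotene against spermatogonia, leptotene-zygotene against pre-leptotene, diplotene against mid-pachytene, round spermatids against diplotene, round spermatids against spermatogonia, mid-pachytene against leptotene-zygotene and early-pachytene against leptotene-zygotene. With a floor at log2 5 leptotene-zygotene against pre-leptotene had 2 calls and early-pachytene 28. Of all tested probe sets 1.67% and 9.22% were then called. With log2(signal + 16) early-pachytene had 19 calls, against 7.3% of all tested probe sets. Leptotene-zygotene against pre-leptotene had 1 call after quantile normalization, 2 with a trended prior and 1 with the mean of probe sets, and early-pachytene 5 with the mean of probe sets and 6 with members at log2 8. With the array project as a block the counts were 1, 3, 77, 72, 153, 78 and 4. Leaving out 1 array gave 0 to 2, 0 to 4, 24 to 29, 24 to 59, 147 to 151, 17 to 55 and 1 to 13. The number of members highest before pachynema, 85, was 72 with median centring, 80 after quantile normalization and 80 with the mean of probe sets, and 98 or 68 with members at log2 6 or 8. The planned count of protein features was not run. The cause of these shifts was not tested, and signals near background limit the low members.

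A block by replicate number rests on a shared number and not on known pairs. With it the counts were 1, 3, 71, 76, 154 and 81 for the comparisons other than early-pachytene. These were 0.552%, 1.66%, 39.2%, 42.0%, 85.1% and 44.8% of the members. Of all tested probe sets 4.14%, 4.45%, 27.8%, 32.8%, 78.3% and 39.9% were then called. By their deviations, 14 of 18 arrays were closest to their own number.

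Of 3090 alternative values for 184 named changes, 2858 kept direction and side of the threshold, 179 lost and 26 gained the call, 4 became 0 at the floor and 23 changed sign. Sign changes in round spermatids against diplotene cells were Zfp462 with the floor (0.17) and with median centring (0.015), Zfp148 with the replicate block (-0.057) and the mean of probe sets (-0.77), and Zfp830 with the mean of probe sets (-0.038). Leaving out 1 array gave -0.12 to 0.90 for Zfp292, -1.38 to 0.072 for Zfp809, -0.072 to 1.53 for Zfp36, -0.77 to 0.45 for Zfp462 and -0.0041 to 0.31 for Zfp541, each with a sign change without a diplotene or round spermatid array. In mid-pachytene against leptotene-zygotene cells the sign changed for Zfp217 (0.042), Zfp462 (0.74) and Zfp819 (-0.037) with the project block and for Zfp106 (0.080), Zfp207 (0.086) and Zfp91 (0.43) with the mean of probe sets, and leaving out 1 array gave -0.087 to 0.17 for Zfp819 and -1.10 to 0.15 for Zfp462. In round spermatids against spermatogonia the sign changed for Zfp106 with the mean of probe sets (0.20).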
